A study of Sus scrofa with 36 samples.

Results

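The hippocampal arrays with the most FOS transcript were set against those with the least. FOS is read by 1 probe set on the array (Ssc.1555.1.A1_at). The arrays were chosen by its deposited log2 value: of all 36, the 12 highest (FOS-high) were compared with the 12 lowest (FOS-low). Ties were broken by the column order of the deposited table, and the 12 arrays between the classes entered only the analyses that say so. The classes are ranges of a measured value, not groups of the study, so the FOS values themselves are given as a description with no test.

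The study measured RNA in the hippocampus of male piglets (Sus scrofa, Landrace by Large White cross) at postnatal day 38 on Affymetrix porcine arrays. Piglets were fed from day 3 in 3 groups of 12 with a control milk replacer holding a basal level of lactoferrin, an iron-binding milk glycoprotein, or with replacer supplemented to 0.6 g/L, called the medium dose, or to 1.2 g/L, called the high dose. The labels give neither the amount of the basal level nor the hour at which tissue was collected, and they mention a behaviour room without saying how long before collection it was used. Both FOS classes drew on all 3 feeding groups and on all 5 set codes (S1 to S5), codes in the sample descriptions whose meaning is not given. Nothing in the labels says outright that each array is a separate piglet, so p-values measure the spread between these samples.

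FOS encodes a subunit of the AP-1 transcription factor. It is the classic immediate early gene: its transcript is nearly absent in resting neurons, appears within minutes of calcium entry and MAP kinase signalling, and is gone again within hours, which is why it is used as a mark of recent neuronal activity. Other immediate early genes answer the same signals. Some encode transcription factors (EGR1, EGR4, the NR4A receptors, KLF4), others encode proteins that act directly on the cell, such as the MAP kinase phosphatase DUSP1 or the prostaglandin synthase PTGS2. Several of them also answer growth factors, glucocorticoids and cell stress, in glia and vessels as well as in neurons.

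FOS lay at 6.7 in the lowest, 6.9 in the median and 7.7 in the highest FOS-high array, and at 5.6, 6.3 and 6.4 in the FOS-low arrays, all on the log2 scale. The class means were 7.01 ± 0.33 and 6.17 ± 0.26 (SD, n = 12 each), which is 1.79-fold. The arrays between lay from 6.4 to 6.7. High-dose replicate 12 (7.7) and control replicate 8 (7.5) topped the ranking, and high-dose replicate 2 (5.6), control replicate 4 and control replicate 12 (both 5.9) stood at its foot. Values were deposited with 1 decimal, so both borders fell inside a tie: at 6.7 there were 3 arrays inside the FOS-high class and 2 outside it, and at 6.4 there were 3 inside the FOS-low class and 6 outside it.

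**Figure D1:**
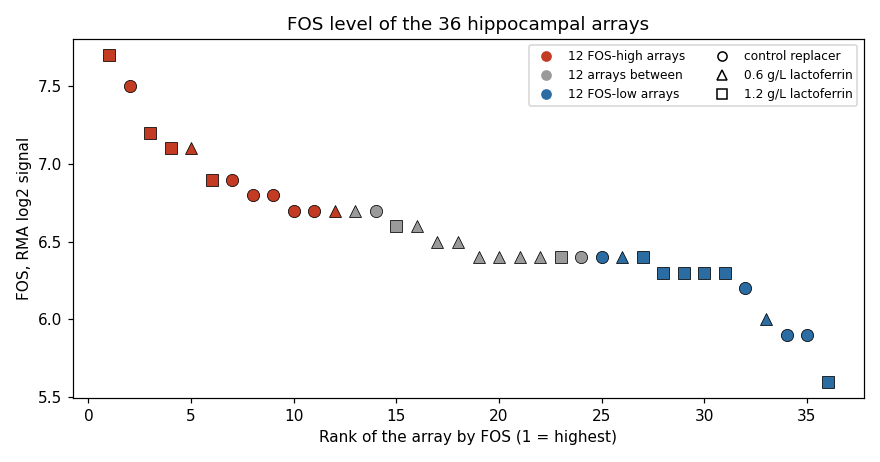
FOS log2 signal (y axis) of the 36 arrays against their rank from highest to lowest (x axis), coloured by class, with the marker shape giving the feeding group. The top 2 arrays, at 7.7 and 7.5, stand above the rest, and the lowest, at 5.6, stands below them, while the middle of the ranking is a run of ties from 6.4 to 6.7.

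The classes were not detectably uneven in feeding group, set code or spike-in control. FOS-high and FOS-low arrays numbered 6 and 4 among control piglets, 2 and 2 at the medium dose, and 4 and 6 at the high dose (Fisher's exact test, p = 0.859, adjusted p = 1 over 3 tests). By set code they numbered 3 and 1 (S1), 1 and 2 (S2), 2 and 6 (S3), 3 and 2 (S4), and 3 and 1 (S5) (Fisher's exact test, p = 0.414). Any difference within S1, S2 or S5 given below thus has a single array in 1 of its classes. The medium dose gave 8 of the 12 arrays between the classes. FOS averaged 6.58 ± 0.45 in control, 6.51 ± 0.26 in medium-dose and 6.59 ± 0.55 in high-dose arrays (SD, n = 12 each).

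Signs of RNA quality did move with FOS. The difference between the 3′ and 5′ actin control probe sets, which grows as RNA is degraded or labelled incompletely, averaged 2.61 ± 0.45 in FOS-high and 3.10 ± 0.34 in FOS-low arrays (log2, SD, n = 12 each, permutation p = 0.00658, adjusted p = 0.0329 over 5 measures). It was lower in the FOS-high arrays within each of the 5 set codes. The same difference for GAPDH averaged 0.892 ± 0.138 against 1.033 ± 0.115 (permutation p = 0.0192, adjusted p = 0.048), and was lower in the FOS-high arrays in 4 set codes, all but S5. The hybridisation control bioB (adjusted p = 0.143), the spike-in control Dap (adjusted p = 0.672) and each array's average correlation with the remaining arrays (adjusted p = 0.672) did not pass. Of the 3 arrays with the lowest mean correlation, 2 were FOS-low. These were high-dose replicate 2 (0.98) and control replicate 4 (0.987), and control replicate 10 (0.986) lay between the classes. A class fit without these 3 arrays therefore loses only FOS-low arrays, and high-dose replicate 2 is the only FOS-low array of S1.

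Cell type markers were set beside FOS, with no test of the list means. The mean of 13 neuron genes ran from 11.24 to 11.80 in FOS-high and from 10.59 to 11.58 in FOS-low arrays, and the mean of 15 oligodendrocyte and myelin genes ran from 9.63 to 10.43 in FOS-high and from 9.73 to 11.09 in FOS-low arrays. High-dose replicate 2 held both the lowest neuron mean (10.59) and the highest oligodendrocyte mean (11.09), followed among the 24 arrays by control replicate 4 (10.99 and 10.79). In bulk tissue, fewer cells of a type and less RNA per cell cannot be told apart. Array levels have no zero, and the defining markers of the tissue were well measured: SNAP25, a synaptic fusion protein, lay between 12.3 and 13.3 and MBP, a myelin protein, between 14.4 and 14.9 over both classes. NEUROD1, a factor of dentate granule cells, lay between 5.4 and 7.5, and TTR, the choroid plexus transport protein, between 5.0 and 8.0.

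The comparison asks which other transcripts separate arrays with much FOS from arrays with little. Moderated two-sided tests (limma) with the set code as a block were run on all 23998 other probe sets, and a probe set passed at an adjusted p under 0.05. Only 5 passed (0.0208%), 2 higher (0.00833%) and 3 lower (0.0125%) in the FOS-high arrays: KLF4, 1 of the 3 probe sets of EGR1, PHF7 and 2 probe sets that carry no gene symbol here. Without adjustment, 1797 (7.49%) were higher and 2268 (9.45%) lower at p under 0.05, and the median log2 difference over all probe sets was -0.016. In the sentences that follow, a gene "rose" or "fell" only if it passed, and other genes are given by their values. Log2 differences come from the fit within set codes, so they can differ from the difference of class means, in either direction. KLF4 differed by 0.48 in class means and by 0.61 in the fit, and TTR by 0.01 and 0.25. IER2, another immediate early gene, went the other way, at 0.22 in class means and 0.15 in the fit.

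KLF4, a zinc finger transcription factor of the immediate early kind, lay at 5.8, 6.2 and 6.8 in the lowest, median and highest FOS-high array, against 5.3, 5.8 and 6.2 in the FOS-low arrays. The ranges overlapped, and 11 of 12 FOS-high arrays lay above the FOS-low median. KLF4 rose by 0.61 on the log2 scale (SE 0.10, 1.53-fold, 95% interval 0.41 to 0.81, adjusted p = 0.0358). From S1 to S5 its difference within the set code was 0.33, 0.95, 0.63, 0.63 and 0.50, so it was positive in all 5. It kept an adjusted p under 0.05 in 13 of the 24 fits that left out 1 array, where the adjusted p ran from 0.00566 to 0.116. The calls were lost without control replicates 2 (0.0706), 6 (0.116), 7 (0.0594) and 12 (0.101), without medium-dose replicates 6 (0.0558) and 12 (0.0761), and without high-dose replicates 1 (0.0536), 6 (0.0707), 9 (0.0521), 10 (0.0661) and 11 (0.0577). The other order of ties in the FOS-low class (KLF4 adjusted p = 0.0573) and the feeding group as a further term (0.0923) also ended the call.

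EGR1, an immediate early zinc finger factor needed in mice for lasting synaptic change, was read by 3 probe sets. All 3 were higher in the FOS-high arrays within each of the 5 set codes, though S1, S2 and S5 have a single array in 1 class. The probe set that passed, Ssc.19629.1.A1_at, lay at 5.1, 5.4 and 6.0 in the lowest, median and highest FOS-high array, against 3.6, 4.65 and 5.1 in the FOS-low arrays. The classes met at 5.1 only. This probe set was dim, with means of 5.43 ± 0.29 in FOS-high and 4.54 ± 0.49 in FOS-low arrays (SD, n = 12 each). It rose by 0.93 (SE 0.17, 1.9-fold, 95% interval 0.58 to 1.27, adjusted p = 0.0489). The brightest probe set, Ssc.19629.2.S1_s_at, lay at 7.8, 8.5 and 8.9 in FOS-high arrays, against 6.7, 7.8 and 8.4 in FOS-low arrays. Its difference was 0.76 (SE 0.18, unadjusted p = 0.0003, adjusted p = 0.139), and that of Ssc.16460.1.S1_at was 0.66 (SE 0.17, unadjusted p = 0.000591, adjusted p = 0.147), so neither passed. For Ssc.19629.1.A1_at the difference within set codes was 1.87 in S1 and 1.55 in S2, where the 2 lowest EGR1 arrays (3.6 each, high-dose replicate 2 and control replicate 4) lie. In S3 it was 0.62, in S4 0.58 and in S5 0.60. The call held in 4 of the 24 fits without 1 array, with a difference between 0.76 and 0.99 in all of them. Without the 3 arrays of lowest correlation, which takes both arrays at 3.6 out of the FOS-low class, the adjusted p of this EGR1 probe set was 0.234.

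**Figure D2:**
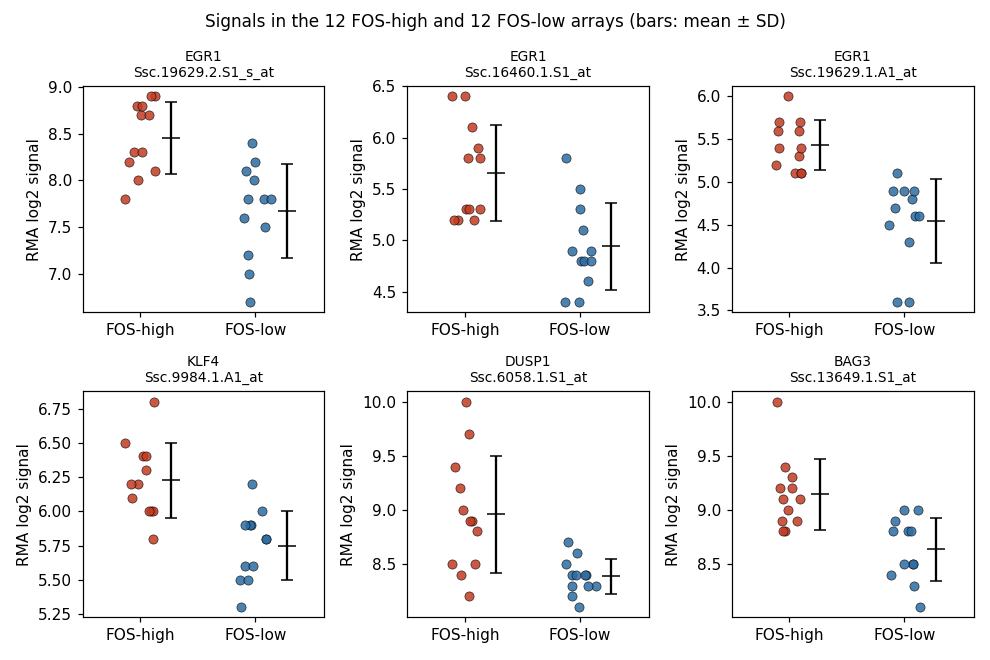
RMA log2 signal (y axis, not starting at 0) of the 3 EGR1 probe sets, KLF4, DUSP1 and the co-chaperone BAG3 in the 12 FOS-high and 12 FOS-low arrays (x axis). Each point is 1 array and the bars give the mean ± SD. In each panel the FOS-high mean stands higher, and in each panel the ranges of the classes touch or overlap.

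Both unnamed probe sets and PHF7 fell. Ssc.2618.1.S1_at lay at 7.0, 7.1 and 7.2 in FOS-high arrays, against 7.3, 7.5 and 7.9 in FOS-low arrays. It was the only probe set of 23998 whose classes did not overlap (0.00417% in the lower direction, 0% in the higher), and its difference was -0.44 (SE 0.07, adjusted p = 0.0462). Ssc.26850.1.S1_at was dim, at 3.67 ± 0.12 in FOS-high and 3.93 ± 0.12 in FOS-low arrays (SD, n = 12 each), with a difference of -0.29 (SE 0.05, adjusted p = 0.0489). Of the 24 fits without 1 array, 10 kept the call of Ssc.2618.1.S1_at and 4 that of Ssc.26850.1.S1_at. PHF7, a PHD finger protein known in the mouse from sperm formation, lay at 4.2, 4.4 and 4.7 in FOS-high arrays and at 4.4, 4.7 and 5.1 in FOS-low arrays. Its probe set was dim as well, with means of 4.43 ± 0.15 and 4.72 ± 0.19 (SD, n = 12 each). PHF7 fell by 0.33 on the log2 scale (SE 0.06, adjusted p = 0.0462), and the call held in 5 of the 24 fits without 1 array, with adjusted p from 0.0233 to 0.225.

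Immediate early transcription factors and regulators were counted with 1 probe set per gene. Of 31 listed, 19 were measured, and 8 of these were higher at unadjusted p under 0.05, against 8.09% of all 6764 named genes, while 0 were lower, against 8.32%. The median difference was 0.16, against -0.004 for all named genes, and 14 of 19 were above 0. KLF4 alone passed with the probe set that stands for it. The list was chosen with the FOS result known, and the count describes these arrays.

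The members with unadjusted p under 0.05 besides EGR1 and KLF4 were EGR4, KLF10, NR4A2, NR4A3, BTG2 and IER2. EGR4, a close relative of EGR1, lay at 6.7, 7.1 and 7.4 in FOS-high arrays, against 5.8, 6.8 and 7.2 in FOS-low arrays, a difference of 0.45 (SE 0.14, adjusted p = 0.178). In S1 and S2, which hold both arrays at 5.8, the EGR4 difference was 1.27 and 0.90, and in S3 to S5 it was 0.18, 0.15 and 0.27. KLF10, a TGF-beta-inducible zinc finger factor, lay at 7.9, 8.25 and 8.7 in FOS-high and at 7.2, 8.0 and 8.4 in FOS-low arrays, with a difference of 0.38 (SE 0.13, adjusted p = 0.188).

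The orphan nuclear receptors NR4A2 and NR4A3, which switch on without a known ligand after activity, differed by 0.29 (SE 0.13, adjusted p = 0.27) and 0.27 (SE 0.11, adjusted p = 0.245). NR4A2 lay at 6.7, 7.1 and 7.8 in FOS-high and at 6.4, 7.05 and 7.2 in FOS-low arrays, so the medians nearly met. BTG2, an antiproliferative regulator of mRNA decay, differed by 0.30 (SE 0.11, adjusted p = 0.211). Within set codes the BTG2 difference was -0.20 in S1 and 0.10, 0.40, 0.48 and 0.50 in S2 to S5. IER2 differed by 0.15 (SE 0.07, adjusted p = 0.29), with 7.1, 7.3 and 7.8 in FOS-high and 6.8, 7.1 and 7.5 in FOS-low arrays.

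The AP-1 partner JUN did not pass and pointed the other way. JUN lay at 9.4, 9.7 and 10.1 in FOS-high and at 9.5, 9.8 and 10.4 in FOS-low arrays, with a difference of -0.12 (95% interval -0.32 to 0.09, unadjusted p = 0.243). The other FOS family members measured, FOSL1 and FOSL2, differed by -0.07 (95% interval -0.21 to 0.07) and 0.02 (-0.16 to 0.20). MYC, a growth regulator, and NFIL3, a leucine zipper repressor, were at 0.19 (unadjusted p = 0.0663) and 0.18 (unadjusted p = 0.0674). The remaining 6 measured members (ATF3, KLF2, IER3, IER5, CREM and BHLHE40) lay between -0.12 and 0.16. Some of their other probe sets differed from these: of IER5, 1 was at -0.16 (unadjusted p = 0.00507, adjusted p = 0.18) and 1 at 0.15, and of CREM, 1 was at 0.23 (unadjusted p = 0.00797, adjusted p = 0.19). FOSB, JUNB, ARC, NPAS4, HOMER1, NR4A1 and NTRK2 had no probe set with that single symbol here and were not analysed.

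**Figure D3:**
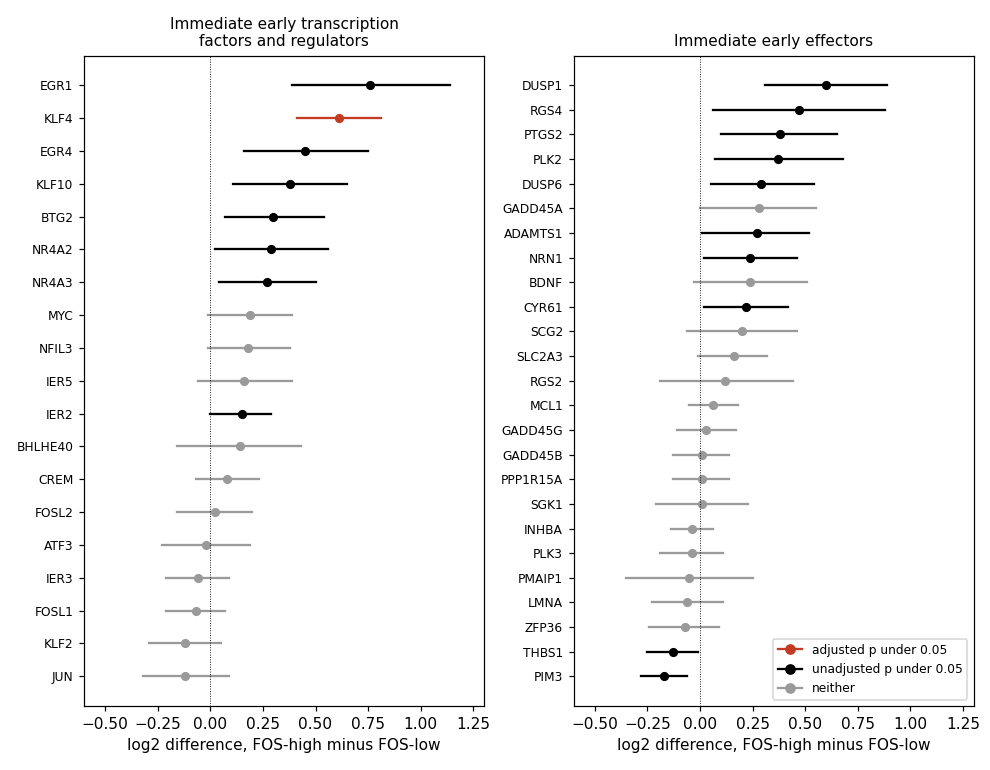
Log2 difference, FOS-high minus FOS-low, of each measured immediate early gene (x axis, 1 probe set per gene), with bars for the 95% interval and genes ordered by difference down the page. The left panel holds 19 transcription factors and regulators and the right panel 25 effectors. KLF4 alone is drawn as passing, EGR1 and DUSP1 lead their panels at 0.76 and 0.60, and JUN and PIM3 stand at the foot.

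Immediate early effectors gave 8 higher and 2 lower of 25 measured (43 were listed), against 8.09% and 8.32% of named genes, with a median of 0.12, and none passed. The share of lower members, 8%, was near that of all named genes. DUSP1, the nuclear phosphatase that shuts off MAP kinases, led them at 8.2, 8.9 and 10 in FOS-high arrays, against 8.1, 8.4 and 8.7 in FOS-low arrays. The FOS-high arrays were spread widely (8.96 ± 0.54) and the FOS-low arrays narrowly (8.38 ± 0.16, SD, n = 12 each). The DUSP1 difference was 0.60 (SE 0.14, unadjusted p = 0.000269, adjusted p = 0.137). From S1 to S5 it was 0.07, 0.65, 0.50, 0.50 and 1.43, the last being the set where the array with the most FOS had the most DUSP1.

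The other effectors higher at unadjusted p under 0.05 were RGS4, PTGS2, PLK2, DUSP6, ADAMTS1, NRN1 and CYR61. RGS4, a brake on G protein signalling in neurons, differed by 0.47 (SE 0.20, adjusted p = 0.246), with 10.5, 10.75 and 11.4 in FOS-high and 9.0, 10.6 and 10.9 in FOS-low arrays. PTGS2, the inducible prostaglandin synthase, differed by 0.38 (SE 0.13, adjusted p = 0.194) and lay above the FOS-low median in 11 of 12 FOS-high arrays. PLK2, a kinase that scales down synapses after activity, differed by 0.37 (SE 0.15, adjusted p = 0.227). DUSP6, a cytoplasmic ERK phosphatase, differed by 0.29, the protease ADAMTS1 by 0.27, NRN1, a neurite growth protein, by 0.24 and CYR61, a matricellular protein, by 0.22. A second probe set of DUSP6 stood at 0.04 and one of ADAMTS1 at 0.09.

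The 2 lower effectors were PIM3, a survival kinase (-0.17, SE 0.05, adjusted p = 0.171), and THBS1, an adhesive glycoprotein (-0.13, SE 0.06, adjusted p = 0.28). Of the other 4 THBS1 probe sets, 3 were below 0 and 1 was at 0.23. BDNF, the activity-regulated neurotrophin, lay at 8.6, 9.05 and 9.5 in FOS-high arrays, against 8.1, 8.85 and 9.4 in FOS-low arrays. The BDNF difference of 0.24 (95% interval -0.03 to 0.51, unadjusted p = 0.0825) did not pass. A second probe set of PLK3, a stress-responsive kinase, was at -0.19 (unadjusted p = 0.00445, adjusted p = 0.178), while the one that stands for the gene was at -0.04. The remaining 14 effectors, PLK3 among them, lay between -0.07 (ZFP36, which speeds mRNA decay) and 0.28 (GADD45A, a DNA damage response gene).

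With the oligodendrocyte and neuron means as covariates, 4 transcription factors were higher and 0 lower, against 4.41% and 4.18% of named genes, and 5 effectors were higher and 2 lower. KLF4 was then at 0.66 (SE 0.11, adjusted p = 0.0293), DUSP1 at 0.68 (unadjusted p = 7e-05) and EGR1 (Ssc.19629.2.S1_s_at) at 0.61 (unadjusted p = 0.00504). RGS4 (0.04), BDNF (0.02) and NR4A2 (0.06) were close to 0 in that fit. Leaving out the 3 arrays of lowest correlation takes high-dose replicate 2 and control replicate 4 from the FOS-low class alone. Without these 3 arrays the counts were 4 higher and 0 lower transcription factors and 4 higher and 2 lower effectors, against 3.4% and 3.93% of named genes. With the 3′ minus 5′ actin difference as a covariate they were 8 and 0, and 4 and 2, against 5.16% and 5.88%. In the subset that held the spike-in control (8 FOS-high and 8 FOS-low arrays), they were 5 and 1, and 4 and 1, against 3.27% and 3.49%. That subset holds no FOS-low array of S1 and no FOS-high array of S2. The share that each of these measures has in the differences was not tested further.

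Over all 36 arrays, 3 probe sets followed FOS as a continuous value with an adjusted p under 0.05 (0.0125%). These were DUSP1 (slope 0.70 log2 units per log2 unit of FOS, adjusted p = 0.00358), BCAT1, an enzyme of branched-chain amino acid breakdown (probe set Ssc.12565.1.A1_at), and the unnamed Ssc.2618.1.S1_at. BCAT1 was named after its values were seen: its slope was 0.33, with an adjusted p of 0.0322. KLF4 did not pass as a slope (0.42, SE 0.11, limma adjusted p = 0.131), and its Pearson r with FOS was 0.47. KLF4 averaged 5.77 ± 0.23 in the arrays between the classes, near its FOS-low mean of 5.75 ± 0.25 (SD). Among the 12 arrays between the classes, which the class comparison did not use, 0 of 23998 followed FOS by limma, and 724 (3.02%) did at an unadjusted p under 0.05. FOS spans only 6.4 to 6.7 there.

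Pearson correlations with FOS over the 36 arrays were computed for 6 genes. These genes were chosen with earlier results known, and p-values were adjusted over the 6 alone. The correlations reuse the FOS values and the arrays of the class comparison and leave out the set code. They describe the same arrays again and are no independent test. EGR1 (Ssc.19629.2.S1_s_at) gave r = 0.69 (permutation p = 2e-05, adjusted p = 6e-05) and Spearman rho = 0.62 (permutation p = 9e-05, adjusted p = 0.00054). Without high-dose replicate 12 and control replicate 8, the 2 arrays farthest from the median FOS, r was 0.65. Within set code S2 the EGR1 value was r = 0.61 (permutation p = 0.112), within S3 it was 0 (permutation p = 1) and within S4 it was 0.75 (permutation p = 0.0195), and S1 and S5 held too few arrays. With this probe set the relation was thus not detectable within S2 or S3.

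DUSP1 gave r = 0.74 (permutation p = 1e-05, the smallest these permutations can give, adjusted p = 6e-05) and rho = 0.58 (permutation p = 0.00026, adjusted p = 0.00078). Leaving out the same 2 arrays gave r = 0.55. In S2, S3 and S4 DUSP1 gave r = 0.67 (permutation p = 0.0912), 0.88 (permutation p = 0.00467) and 0.68 (permutation p = 0.0505). IER2 gave r = 0.62 (adjusted p = 0.00022, rho = 0.52, permutation p = 0.00147, adjusted p = 0.00294). BTG2 gave r = 0.48 (permutation p = 0.00292, adjusted p = 0.00438), while its rho of 0.35 (permutation p = 0.036, adjusted p = 0.054) did not pass. Without the 2 arrays these were 0.40 and 0.25, so both rest partly on them. Within S2, S3 and S4, r was 0.03, 0.78 and 0.51 for IER2 and 0.19, 0.52 and 0.58 for BTG2. BDNF (r = 0.26, permutation p = 0.131, rho = 0.18, permutation p = 0.298) and JUN (r = -0.24, permutation p = 0.155, rho = -0.17, permutation p = 0.328) were not detectably related to FOS.

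**Figure D4:**
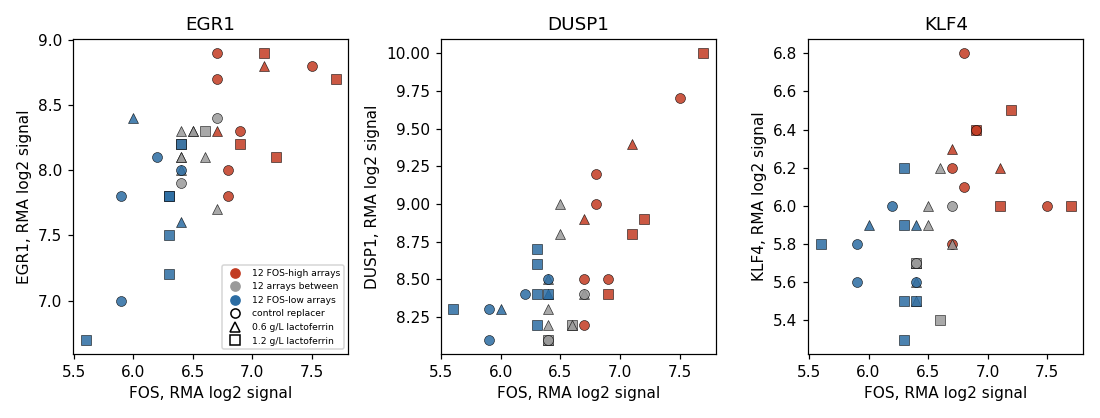
RMA log2 signal of EGR1, DUSP1 and KLF4 (y axes, 1 panel each) against that of FOS (x axis) in the 36 arrays, coloured by FOS class and with the marker shape giving the feeding group. DUSP1 climbs steeply at the top of the FOS range, to 10 in the array with FOS at 7.7, and EGR1 drops at its foot, to 6.7 in the array with FOS at 5.6.

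The 8 named genes whose profile over the 36 arrays was most like FOS were DUSP1 (r = 0.74), CASP8 (0.71), EGR1 (0.69), BAG3 (0.64), IER2 (0.62), RASGRP1 (0.62), GABARAPL1 (0.61) and DDC (0.61). They were picked as the highest of 6764 and share the arrays and their quality with FOS, so these values are descriptions. RASGRP1, a calcium- and lipid-responsive activator of RAS, lay at 7.1, 7.5 and 8.0 in FOS-high arrays, against 6.3, 7.05 and 7.3 in FOS-low arrays (difference 0.54, SE 0.13, adjusted p = 0.142). DDC, which makes dopamine and serotonin, differed by 0.30 (SE 0.12, adjusted p = 0.244), and GABARAPL1, an autophagy adaptor, by 0.17 (SE 0.06, adjusted p = 0.185).

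Since few genes passed, genes were also taken from the 15 named ones with the smallest unadjusted p. KLF4 and PHF7 passed with the probe set of highest mean, which stands for its gene, and the other 13 did not. CASP8, the initiator protease of death receptor signalling, lay at 4.8, 5.25 and 5.5 in FOS-high arrays, against 4.4, 4.8 and 5.0 in FOS-low arrays, and was higher within all 5 set codes. Its difference was 0.44 (SE 0.08, adjusted p = 0.0709).

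RIMKLB, a ligase that makes N-acetylaspartylglutamate, differed by 0.43 (SE 0.08, adjusted p = 0.106). RGS5, a regulator of G protein signalling and marker of pericytes, differed by 0.37 (SE 0.07, adjusted p = 0.113). LUM, the fibroblast proteoglycan lumican, differed by 0.70 (SE 0.15, adjusted p = 0.123), with 5.9, 6.85 and 7.6 in FOS-high and 5.3, 6.3 and 6.6 in FOS-low arrays. WWP1, a ubiquitin ligase, and KHDRBS3, a neuronal splicing regulator, each differed by 0.25 (adjusted p = 0.137 and 0.142).

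CIRBP, the cold-inducible RNA-binding protein, was among the lower genes. CIRBP lay at 8.3, 8.55 and 8.9 in FOS-high arrays, against 8.8, 8.95 and 9.4 in FOS-low arrays, and all 12 FOS-high arrays lay below the FOS-low median. Its difference was -0.39 (SE 0.09, unadjusted p = 0.000322, adjusted p = 0.142). MYOM2, a sarcomere protein, differed by -0.50 (SE 0.11, adjusted p = 0.137), SERPINA5, a serine protease inhibitor, by -0.34 (SE 0.08, adjusted p = 0.137) and VPS72, a subunit of chromatin remodelling complexes, by -0.24 (SE 0.06, adjusted p = 0.137). A second SERPINA5 probe set gave -0.17, and a second one of VPS72 gave -0.06.

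Heat shock proteins and chaperones, which refold damaged proteins, gave 10 higher and 1 lower of 25 measured, against 8.09% and 8.32% of named genes, with a median of 0.11, and none passed. BAG3, the co-chaperone that routes clients to autophagy, lay at 8.8, 9.1 and 10 in FOS-high arrays, against 8.1, 8.65 and 9.0 in FOS-low arrays. All 12 FOS-high arrays lay above the FOS-low median of BAG3, and the difference of 0.50 (SE 0.12, unadjusted p = 0.00052, adjusted p = 0.144) was positive in all 5 set codes (0.97, 1, 0.23, 0.42 and 0.27 in S1 to S5). A second BAG3 probe set gave 0.13. DNAJB6, a suppressor of protein aggregation, differed by 0.23 (SE 0.07, adjusted p = 0.17), and its 3 other probe sets gave -0.07, -0.09 and 0.32. HSPA2, an HSP70 relative best known from sperm formation in mice, was the lower member (-0.38, SE 0.11, adjusted p = 0.162). With the oligodendrocyte and neuron means as covariates 5 chaperones were higher and 1 lower, against 4.41% and 4.18% of named genes. Among the 8 FOS-high and 8 FOS-low arrays holding the spike-in control 0 were higher and 1 lower, against 3.27% and 3.49%.

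Components of the calcium, MAP kinase and CREB pathways that lead to FOS transcription gave 6 higher and 1 lower of 19 measured (31.6% and 5.26%, against 8.09% and 8.32% of named genes), with a median of 0.12. CALM2, which encodes the calcium sensor calmodulin, differed by 0.22 (SE 0.08, adjusted p = 0.201), and the adaptor GRB2 by 0.14 (SE 0.05, adjusted p = 0.205). Other GRB2 probe sets gave -0.02 and 0.19. ATF4, the stress-induced leucine zipper factor, was the lower member (-0.17, SE 0.05, adjusted p = 0.171), with a second probe set at 0.03. CREB1, which drives FOS from its calcium response element, lay at 5.7, 5.8 and 6.0 in FOS-high and at 5.4, 5.7 and 5.8 in FOS-low arrays (difference 0.13, 95% interval -0.01 to 0.27). A second CREB1 probe set gave -0.01. With both cell-type means as covariates the pathway gave 1 higher and 1 lower, against 4.41% and 4.18%.

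Neuropeptides and their processing proteins gave 5 higher and 0 lower of 15 measured, against 8.09% and 8.32% of named genes, with a median of 0.20. PDYN, the opioid precursor prodynorphin of dentate granule cells, lay at 8.1, 9.2 and 9.8 in FOS-high arrays, against 6.9, 8.7 and 9.8 in FOS-low arrays, a difference of 0.71 (SE 0.27, adjusted p = 0.218). PCSK1, the convertase that cuts peptide precursors, differed by 0.65 (SE 0.24, adjusted p = 0.205), CCK, the interneuron peptide cholecystokinin, by 0.35 (SE 0.12, adjusted p = 0.182) and SCG3, a granule protein, by 0.21 (SE 0.07, adjusted p = 0.189). With both cell-type means as covariates 0 were higher and 1 lower, against 4.41% and 4.18%, and the median was 0.02.

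Lists for glucocorticoids, hypoxia, inflammation, the clock and interferon were counted against the same 8.09% higher and 8.32% lower of named genes. Glucocorticoid-responsive genes were higher in 2 of 18 (DUSP1 and CEBPB, 11.1%, near the share of all named genes) and lower in 0, with a median of 0.05. CEBPB, a factor of acute responses, differed by 0.32 (SE 0.10, adjusted p = 0.171). Hypoxia and glycolysis genes were higher in 3 of 19 and lower in 0, with a median of 0.07: LDHA, lactate dehydrogenase (0.28, adjusted p = 0.171), GAPDH of glycolysis (0.13, adjusted p = 0.223) and BNIP3L, a mitophagy receptor (0.13, adjusted p = 0.29). Of the 4 other GAPDH probe sets, 2 were above and 2 below 0, 1 of them at -0.12 (unadjusted p = 0.0498). Acute inflammation genes gave 0 higher and 0 lower of 21, and circadian clock genes 0 higher and 1 lower of 8, DBP, a clock output factor (-0.17, adjusted p = 0.221). Interferon response genes gave 1 higher of 18, OAS1, an antiviral enzyme (0.68, SE 0.31, adjusted p = 0.281), and 0 lower.

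Of 13 neuron genes, 8 were higher and 0 lower at unadjusted p under 0.05, against 8.09% and 8.32% of named genes, and all 13 lay above 0. Their median difference was 0.24, and none passed. The count moved with the setting. Without the set code, with classes of 9 and with the actin difference as a covariate it was 2 of 13 each (15.4%). The shares of named genes that were higher in these settings were 9.83%, 5.04% and 5.16%, in that order. MAP2 of dendrites differed by 0.25 (adjusted p = 0.18), the RNA-binding protein ELAVL4 by 0.33 (adjusted p = 0.203), the surface protein THY1 by 0.28 (adjusted p = 0.223) and SNAP25 by 0.19 (adjusted p = 0.262). Oligodendrocyte and myelin genes gave 0 higher and 7 lower of 15 (46.7%), none of which passed, and all 15 lay below 0, with a median of -0.32. This count moved too. With the other tie order in the FOS-low class 1 of 15 was lower (6.67%, against 7.64% of named genes), with a median of -0.24. Without the set code 4 were lower (26.7%, against 9.77%), and with the feeding group as a further term 7 were (46.7%, against 6.7%). FA2H, which hydroxylates myelin lipids, differed by -0.48 (adjusted p = 0.189), the myelin membrane proteins MAL and PLLP by -0.42 (adjusted p = 0.229) and -0.38 (adjusted p = 0.22), and MBP by -0.10 (95% interval -0.22 to 0.01). Leaving out the 3 arrays of lowest correlation takes arrays from the FOS-low class alone. Both lists then had 0 genes at unadjusted p under 0.05, against 3.4% higher and 3.93% lower of named genes. Their medians were 0.05 for neurons and -0.11 for oligodendrocytes.

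Few genes of the hippocampal subfields were measured. All 4 measured genes of the dentate granule cell list lay below 0. Of these, 1 was lower at p under 0.05 (IGFBP5, -0.21, adjusted p = 0.222), against 8.32% of named genes. NEUROD1 was at -0.25 (95% interval -0.62 to 0.12), with a second probe set at -0.05. PDYN, which was counted with the neuropeptides and not in this list, was at 0.71 (adjusted p = 0.218). With both cell-type means as covariates NEUROD1 was at -0.56 (unadjusted p = 0.00189) and PDYN at 0.44 (unadjusted p = 0.132). In that fit 3 of the 4 genes of the dentate list were lower at p under 0.05, against 4.18% of named genes. Of 3 measured pyramidal cell genes 1 was higher, against 8.09% of named genes. It was RGS14, a signalling scaffold of the CA2 field (0.42, SE 0.16, adjusted p = 0.216), while POU3F1 was at -0.12 and MAN1A1 at 0.07.

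The remaining cell types are read against 8.09% higher and 8.32% lower of named genes, and with so few genes a list several of these counts are near that share. Of 9 astrocyte genes, SOX9, a glial transcription factor (0.32, SE 0.09, adjusted p = 0.16), was higher and the filament gene GFAP (-0.24, SE 0.11, adjusted p = 0.294) was lower at p under 0.05. All 4 GFAP probe sets were below 0. Microglia gave 2 higher of 11, the complement gene C1QC (0.33, adjusted p = 0.206) and the leukocyte phosphatase PTPRC (0.20, adjusted p = 0.29), and the microglial receptor P2RY12 was at 0.14 (95% interval -0.13 to 0.40). Mural cells gave 2 of 8 (RGS5 and the filament gene DES, 0.35, adjusted p = 0.19), meningeal fibroblasts 1 of 8 (LUM), and endothelial cells 0 higher and 1 lower of 15 (CD34, -0.12, adjusted p = 0.246). A second DES probe set was at -0.06. Oligodendrocyte precursors, choroid plexus and blood cells gave 0 of 4, 0 of 4 and 0 of 7, and TTR was at 0.25 (95% interval -0.44 to 0.95).

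**Figure D5:**
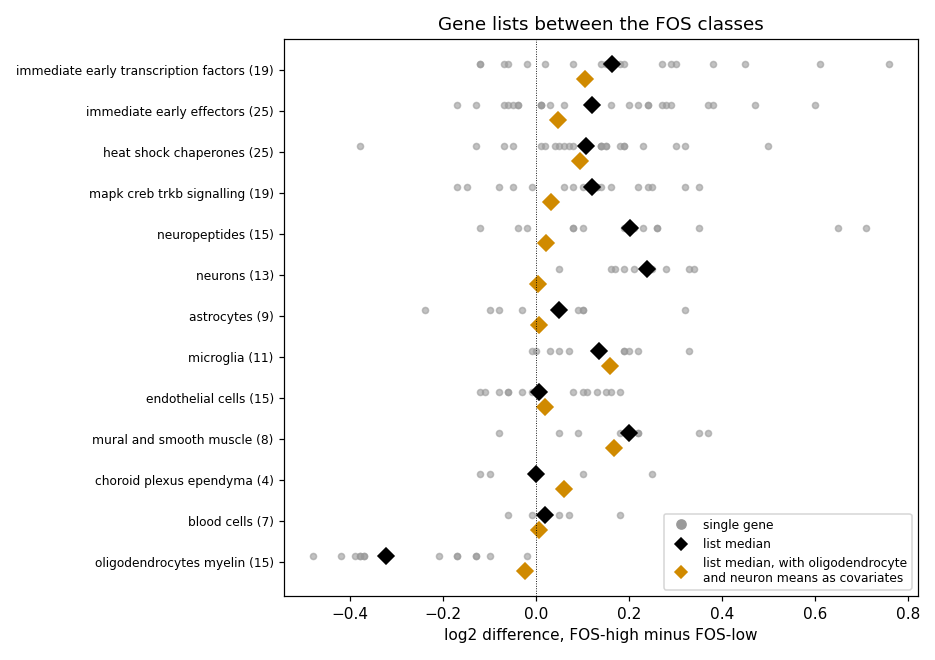
Log2 difference, FOS-high minus FOS-low (x axis), for 13 of the 25 gene lists, with the number of measured genes in brackets. Grey points are single genes, black diamonds the list medians, and orange diamonds the medians once the oligodendrocyte and neuron means are covariates. The neuron and oligodendrocyte medians move to about 0 in that fit, as their own means are then held constant, and that of the immediate early transcription factors is 0.11, against 0.16 without the covariates.

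Whether FOS goes with other transcripts in a different way by feeding group was tested with an interaction of the FOS slope and the feeding group over the 36 arrays. None of 23998 passed (0%), the smallest adjusted p was 0.115, and 1152 (4.8%) had an unadjusted p under 0.05 by limma.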

How the data were processed

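RNA from 36 hippocampi was hybridised to Affymetrix porcine arrays after biotin labelling of cRNA, per the labels' protocols. Per the submitters' processing notes, the authors used Affymetrix Expression Console 1.1 and RMA, and they deposited log2 values. RMA subtracts background, gives all arrays the same distribution and condenses the probes of each set, which narrows differences shared by most probes. Values are rounded to 1 decimal and run from 2.4 to 15.1. Intensities and genome builds were not used here. Precision is limited by how many arrays there are.

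Genes were named through the platform's annotation of 2016. Leaving out 124 controls, 10069 of 23999 probe sets have 1 symbol, 198 have several and 13732 have none. RefSeq held 9961 of them by gene ID, and no symbol changed. The named genes numbered 6764, each represented by its probe set of highest mean.

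Arrays were ranked by FOS and the 12 highest and 12 lowest compared with limma 3.58.1 in R 4.3.3: the linear model held the class plus a fixed term for the set code, eBayes statistics were two-sided, and p-values were adjusted by Benjamini-Hochberg over the 23998 tested, with 0.05 as the threshold. No filter on dim probe sets was set. The model was tested on simulated data first. Relations across arrays and technical measures used 100000 resamples, two-sided. A log2 value over 6 counted as presence of the spike-in control. Python 3.11.15 with matplotlib 3.10.9 drew the figures.

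The members, the 25 gene lists (501 symbols), the tests and the named genes were chosen with earlier results of these data known. Named genes are those past the threshold (up to 12 in each direction), or, with fewer than 10 past it, the 15 with the smallest unadjusted p (1 of them is not reported here), all immediate early genes by value or count, up to 3 of each other list, the 8 of highest correlation with FOS, and FOSB, JUNB, EGR1, ARC, NR4A1, NPAS4, DUSP1, BDNF, HOMER1, JUN, IER2, BTG2, PDYN, CREB1, NTRK2, TTR, MBP, GFAP, P2RY12 and SNAP25 where measured. Lists of glutamate receptors (1 gene measured, 0.02), the GABA system (5 measured, median 0.11) and interneurons (6 measured, 1 higher, CCK) were also computed. Alternatives changed the block, the classes, filters, normalisation, weights and covariates.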

Additional observations from a re-analysis of the deposited data

Results flagged for a closer look

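Values of EGR1, DUSP1 and KLF4 within each set code were searched for arrays far from the rest of their set. Over 15 groups of 4 to 10 arrays, 2 values stood out by Dixon's test, both in 1 array, where chance alone flags about 1 in 20 groups. DUSP1 in high-dose replicate 6 was 8.9, the highest of the 10 arrays of S2, with the nearest at 8.5. KLF4 in the same array was 6.5, with the nearest at 5.8. High-dose replicate 6 is the only FOS-high array of S2, so the S2 differences of these genes rest on it. Without it KLF4 was at 0.56 with an adjusted p of 0.0707.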

How the results depend on the processing

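The number of probe sets that passed was 5 in the comparison as reported, and it moved with most settings. Without the set code it was 335 (177 higher, 158 lower), and with the set code as a random block 165. With the set code and the feeding group it was 0, and with a further block for the spike-in control 8. Over all 36 arrays in 3 classes it was 5, and as a slope on FOS 3. Classes of 9 gave 1, and classes of 18 gave 0. Filters at the 25th and 50th percentile of mean level gave 2 and 0, centring each array gave 5, quantile normalisation on top 1, array weights 1, an eBayes step with trend and robust options 4, and testing 1 probe set per gene 3. As covariates, the oligodendrocyte mean gave 3, the choroid plexus mean 6 and the neuron mean 0. Leaving out S1 gave 1, and leaving out S2, S3, S4 or S5 gave 0 each. Leaving out 1 array at a time gave 0 to 8, and 1 without high-dose replicate 2. Added after the data had been seen, the other tie order in the FOS-low class gave 0, leaving out the 3 arrays of lowest correlation 1, the arrays with the spike-in control alone 0, the oligodendrocyte and neuron means together 3, and the actin difference 1. The cause of these shifts was not tested.

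KLF4 lay between 0.42 and 0.72 over 52 alternatives and lost its call in 22, with adjusted p from 0.00566 to 0.471. The passing EGR1 probe set lay between 0.61 and 1.06 over 51 and lost it in 41 (adjusted p from 0.0083 to 0.504), and PHF7 lay between -0.36 and -0.24 and lost it in 37 (adjusted p from 0.0152 to 0.471). Ssc.2618.1.S1_at lost its call in 33 of 52 (adjusted p from 0.0026 to 0.471) and Ssc.26850.1.S1_at in 39 of 50 (adjusted p from 0.025 to 0.471). None of these changed sign. The ranges of KLF4, EGR1 and PHF7 include the slope per log2 unit of FOS, which is not a class difference. The slope was 0.42 for KLF4, 0.81 for this EGR1 probe set and -0.24 for PHF7. Of the genes named with their difference, these changed sign, none of which had passed: JUN, at 0.01 with the oligodendrocyte mean and 0.09 among arrays holding the spike-in control, TTR, at -0.04 as a slope and -0.08 without S3, GFAP, at 0.02 among arrays holding the spike-in control, P2RY12, at -0.02 as a slope, IER3, at 0.02 with classes of 9 and 0.01 with the oligodendrocyte mean, and BHLHE40, at -0.10 among arrays holding the spike-in control and -0.08 with the actin difference. PLK3, at -0.04 as reported, was at 0.04 with the oligodendrocyte mean, 0.09 with the neuron mean and 0.09 with both. ZFP36 was at 0.03 with the oligodendrocyte mean, 0.01 with the neuron mean, 0.03 with both, 0.01 without S1 and 0.02 without the 3 arrays of lowest correlation, and from -0.13 to 0.01 without 1 array. FOSL2, close to 0 as reported, was at -0.01 without the set code, 0 with it as a random block, -0.01 with classes of 18, -0.04 with array weights, -0.05, -0.11 and -0.10 with the oligodendrocyte mean, the neuron mean and both, -0.07 and -0.02 without S1 and S2, -0.09 without the 3 arrays of lowest correlation and -0.15 among arrays holding the spike-in control. Without 1 array it ran from -0.07 to 0.08. ATF3, also close to 0, was at 0.02 without the set code, 0.01 with it as a random block or with the feeding group, 0.05 with array weights, 0.13, 0.10 and 0.12 with the oligodendrocyte mean, the neuron mean and both, 0.08 and 0.01 without S1 and S3, 0.08 without the 3 arrays of lowest correlation, 0.09 among arrays holding the spike-in control and 0.04 with the actin difference. Without 1 array it ran from -0.08 to 0.08. The cause of these changes was not tested.

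With the replicate number as a block in place of the set code 0 passed, and KLF4 had an adjusted p of 0.441. Same-numbered arrays of different feeding groups share only a number: their correlations ran from -0.42 to 0.28 with a median of 0, 8 of 36 pairs were over 0.1, and 2 of 36 arrays correlated best with their own number. Ranking by the mean of several FOS probe sets was not run, as there is 1.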
